A study of Mus musculus with 6 samples.

Results

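The genes that write and erase DNA methylation were followed in B cells of mice with a lupus-like disease. The set holds 8 genes, taken by name from the 41669 gene symbols of the deposited count table: Dnmt1, Uhrf1, Dnmt3a, Dnmt3b, Smchd1, Tet1, Tet2 and Tet3. All 8 were found under these symbols, and all 8 passed the filter on low counts that left 12172 genes for testing. The 6 libraries came from 3 female and 3 male NZB/W F1 mice at the late stage of their disease. NZB/W F1 is a hybrid strain that develops autoantibodies spontaneously. Splenic B cells of every mouse were taken on a positive-selection column and cultured for 24 h with CpG DNA, which activates B cells through Toll-like receptor 9. All libraries thus share strain, disease stage, stimulus and time, and the labels separate the groups by sex alone. The labels give no age, and no unstimulated or healthy mice were analysed here.

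DNA methylation in mammals sits mainly on cytosines that are followed by a guanine (CpG dinucleotides). Dnmt3a and Dnmt3b encode the de novo methyltransferases that place the mark on unmethylated DNA. Dnmt1 encodes the maintenance methyltransferase that copies it to the new strand after replication, and Uhrf1 encodes the protein that recognises hemimethylated CpG and brings DNMT1 to it. Smchd1 encodes a noncanonical SMC protein needed for CpG island methylation and gene silencing on the inactive X chromosome, which the title of the series names. Tet1, Tet2 and Tet3 encode dioxygenases that oxidise 5-methylcytosine and so start its removal. In B cells, TET2 and TET3 are known for their part in plasma cell differentiation and class switching, and DNMT1 for its requirement in dividing germinal centre cells.

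The 8 genes lie on 7 chromosomes of the mouse build GRCm38, with Uhrf1 and Smchd1 sharing chromosome 17, and none lies on X or Y. Dnmt1 is at chr9:20907209-20959888 on the minus strand, Uhrf1 at chr17:56303321-56323486 on the plus strand, Dnmt3a at chr12:3806007-3914443 on the plus strand and Dnmt3b at chr2:153649450-153687730 on the plus strand. Smchd1 is at chr17:71344489-71475343, Tet1 at chr10:62804570-62908996, Tet2 at chr3:133463679-133545139 and Tet3 at chr6:83362373-83459084, each on the minus strand. In GENCODE M21 the longest transcripts run from 3586 bases (Uhrf1) to 14369 bases (Tet1). Exons of Dnmt3a share 133 bases with the antisense gene Dnmt3aos, which had 0 counts in the table, and exons of Tet2 share 43 bases with Gm42567 on the other strand.

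Since CpG is the substrate of these enzymes, the 250 bases upstream of each RefSeq start (GRCm38.p6) are described by their CpG content. The set has 13 such windows, because Dnmt1 and Dnmt3a have 3 starts each and Uhrf1 has 2. A median promoter of the 32851 in the table held 6 CpG dinucleotides, while the Tet2 window held 51, more than in 99.9% of all windows. The 2 overlapping upstream windows of Dnmt3a held 38 and 40, and the single Smchd1 window held 33. The starts of 1 gene could differ. The most downstream Dnmt1 window, called nearest below, lies inside the annotated gene and held 26 CpG. The most upstream one, called most distal, adjoins the upstream end of the gene and held 2. The third Dnmt3a window held 15. The windows of Dnmt1 (nearest and most distal), Uhrf1 (the CpG-richer start), Dnmt3b, Tet1 and Tet2 are printed 5′ to 3′ to show this range, with every CpG in capitals.
Dnmt1 nearest start, chr9:20952624-20952873, minus strand: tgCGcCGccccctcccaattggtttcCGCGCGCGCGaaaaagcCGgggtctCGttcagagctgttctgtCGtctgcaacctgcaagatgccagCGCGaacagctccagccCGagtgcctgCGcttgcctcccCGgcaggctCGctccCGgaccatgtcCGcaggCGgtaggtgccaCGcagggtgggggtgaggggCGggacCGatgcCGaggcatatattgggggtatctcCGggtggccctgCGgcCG
Dnmt1 most distal start, chr9:20959889-20960138, minus strand: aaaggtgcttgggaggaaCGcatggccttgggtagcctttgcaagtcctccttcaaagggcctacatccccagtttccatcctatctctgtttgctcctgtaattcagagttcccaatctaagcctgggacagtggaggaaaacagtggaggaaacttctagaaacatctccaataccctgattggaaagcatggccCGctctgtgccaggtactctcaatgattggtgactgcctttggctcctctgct
Uhrf1, chr17:56304063-56304312, plus strand: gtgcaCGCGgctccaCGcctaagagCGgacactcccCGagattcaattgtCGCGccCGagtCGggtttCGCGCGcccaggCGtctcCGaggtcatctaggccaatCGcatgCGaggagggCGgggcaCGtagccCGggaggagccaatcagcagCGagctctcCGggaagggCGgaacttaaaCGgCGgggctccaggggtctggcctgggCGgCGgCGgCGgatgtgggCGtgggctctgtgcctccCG
Dnmt3b, chr2:153649199-153649448, plus strand: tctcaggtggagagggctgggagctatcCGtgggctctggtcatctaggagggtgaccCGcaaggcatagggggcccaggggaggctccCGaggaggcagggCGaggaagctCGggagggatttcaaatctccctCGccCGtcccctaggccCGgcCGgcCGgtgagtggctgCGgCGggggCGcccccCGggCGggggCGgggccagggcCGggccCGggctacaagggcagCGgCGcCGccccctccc
Tet1, chr10:62887325-62887574, minus strand: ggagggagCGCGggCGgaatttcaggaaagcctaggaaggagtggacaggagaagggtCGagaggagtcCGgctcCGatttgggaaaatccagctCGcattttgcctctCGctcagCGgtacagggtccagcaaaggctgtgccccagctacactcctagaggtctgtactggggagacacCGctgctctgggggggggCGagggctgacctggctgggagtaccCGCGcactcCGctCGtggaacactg
Tet2, chr3:133544391-133544640, minus strand: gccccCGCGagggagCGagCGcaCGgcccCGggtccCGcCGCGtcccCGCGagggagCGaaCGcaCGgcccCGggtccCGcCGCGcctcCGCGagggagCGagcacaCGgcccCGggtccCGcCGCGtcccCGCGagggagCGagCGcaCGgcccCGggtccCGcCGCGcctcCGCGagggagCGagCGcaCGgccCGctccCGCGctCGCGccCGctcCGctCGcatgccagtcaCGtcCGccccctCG
The Sp1 box GGGCGG, searched on both strands, was in 11 of the 13 windows and in 32.7% of all windows of this length. The E2F-type motif TTCCCGC, also searched on both strands, was in 1 of the 13, the more upstream Uhrf1 window, and in 3.82% of all. CCAAT was in both the nearest and the most distal Dnmt1 window, in both Uhrf1 windows and in the Tet3 window, against 33.8% of all windows. A match describes letters and is not a measured binding site. The counts are per gene and do not tell which start a transcript came from.

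The libraries held 24089561 to 35659883 estimated counts, and values below are levels scaled to the column total (CPM) unless stated. A floor of 3 counts corresponds to at most 0.125 CPM in 1 library, and every value of the 8 genes was above it. On the first principal component, female replicate 3 lay away from the rest (50.8% of variance). It had a TMM factor, the edgeR scaling factor, of 0.816 against 0.993 to 1.07 in the others. Its CPM values are therefore low relative to the TMM scale, and results that rest on it are given with and without it. Xist was at 5785 to 7149 CPM in the female libraries and at 1.11 to 2.92 CPM in the male ones, which matched the labelled sex in 6 of 6. The B cell genes Ms4a1 and Pax5 were at 1424 to 1658 and 497 to 591 CPM. The T cell list summed to at most 7.53 CPM, the granulocyte list to at most 0.454 CPM and the erythroid list to at most 2.34 CPM in any library. In bulk RNA, fewer cells of a type and less RNA per cell cannot be told apart.

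Levels of different genes were compared per kilobase of the longest transcript. Smchd1 was the most abundant of the 8, at 117 ± 13.5 CPM per kb (SD, n = 6), above 96.0% of the 12022 tested genes with a known length. Uhrf1 followed at 81.1 ± 8.26 CPM per kb (above 94.2% of genes) and Dnmt1 at 21.7 ± 5.12 (above 79.5%). The Uhrf1 level was 3.73 times that of its partner Dnmt1. The erasers lay lower, with Tet3 at 8.48 ± 0.830 and Tet2 at 5.54 ± 1.34 CPM per kb. The de novo enzymes came next, with Dnmt3a at 4.10 ± 0.865 and Dnmt3b at 1.92 ± 0.645 CPM per kb. Tet1 was lowest at 0.158 ± 0.0498 CPM per kb, above only 6.45% of tested genes and 12.1 times below Dnmt3b.

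This order was the same in 6 of 6 libraries for every neighbouring pair. Only Tet2 and Dnmt3a had overlapping ranges over the libraries (4.02 to 7.61 and 2.70 to 5.28 CPM per kb). Within each library Tet2 was the higher of the pair, with a ratio of means of 1.35. The difference between these neighbours was not tested. With the median in place of the longest transcript length the values of Dnmt3a, Smchd1, Tet1, Tet2 and Tet3 moved by more than their spread. Dnmt3a then lay above Dnmt1, Tet2 and Tet3, at 48.4 CPM per kb against 24.3, 21.1 and 19.1, and Tet2 lay above Tet3. Tet1, at 3.80 CPM per kb, then lay above Dnmt3b at 2.02, so the lowest place of Tet1 depends on the length used.

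**Figure D1:**
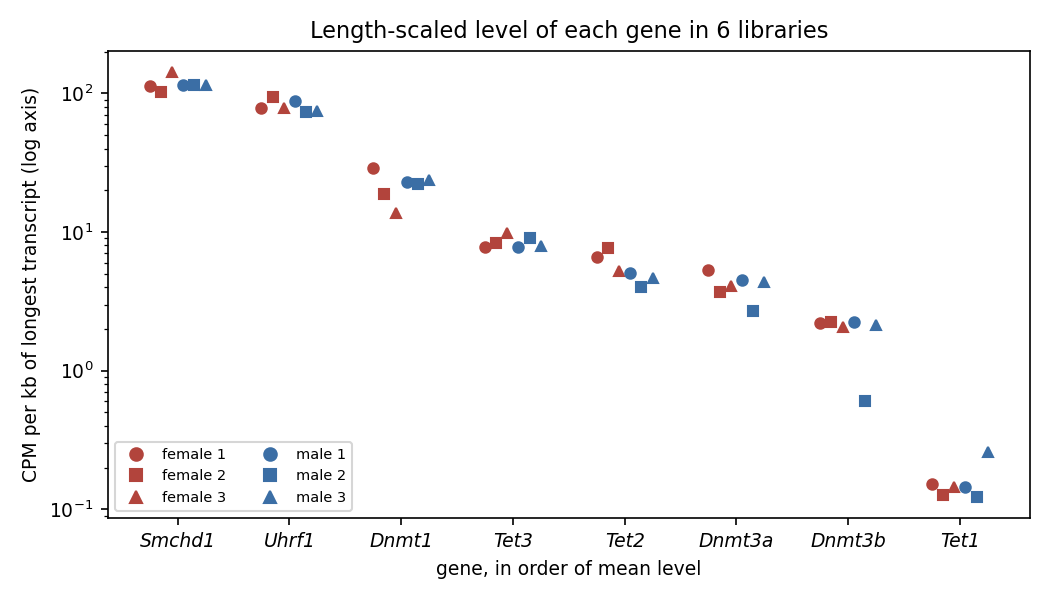
CPM per kb of the longest transcript (log axis) of the 8 genes in order of their mean level, 1 point per library (red, female; blue, male; circles, squares and triangles, replicates 1, 2 and 3). Smchd1 and Uhrf1 lie highest, Tet1 lies lowest at 0.123 to 0.257 CPM per kb, and only the neighbours Tet2 and Dnmt3a overlap.

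The sex comparison asks whether these genes differ between B cells of diseased females and males. None of the 8 passed an FDR of 0.05 in edgeR's quasi-likelihood test over 12172 genes (adjusted p = 0.999 for each), where 0.0575% of all tested genes were called (7 genes). At an unadjusted p under 0.05 there was 1 of the 8, Tet2, against 2.89% of all tested genes. DESeq2 and limma-voom also called 0 of the 8. Limma-voom with sample quality weights called Tet2. In 6 of the 8 genes the log2 fold change (female over male) was above 0, with a median of 0.22 against 0.00095 over all tested genes, of which 50.1% were above 0. Without female replicate 3 it was above 0 in 5 of 8, with a median of 0.11. Scaling by library totals only lowered the median of all genes to -0.12 and that of the 8 to 0.07, with no change in sign for any of the 8. With the trend in transcript length and GC content removed, the median of the 8 rose to 0.40, and Dnmt1 turned positive (0.07).

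Tet2 was the single gene of the set whose groups did not overlap. Its levels were 61.1, 69.9 and 48.1 CPM in female replicates 1 to 3 and 46.7, 36.9 and 42.6 CPM in male replicates 1 to 3. Every female library lay above every male one, by a small margin between female replicate 3 and male replicate 1 on this scale. On the TMM scale the margin was wider, at 57.2 to 70.4 against 35.1 to 44.3 CPM. The mean was 59.7 ± 10.9 CPM in females and 42.0 ± 4.92 CPM in males (SD, n = 3). The fold was 1.55 (log2 fold change 0.63 ± 0.17, SE; 95% interval 0.25 to 1.02; edgeR adjusted p = 0.999). An exact permutation test of the CPM values gave p = 0.1, 2-sided, the smallest that 3 against 3 libraries allow. Of all tested genes 2.69% had every female library above every male one, and 1 of the 8 here did.

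The Tet2 difference was in the same direction in all 16 alternatives, from 0.51 to 0.73 on the log2 scale. All of them reuse the same libraries. Since the Tet2 groups do not overlap on either scale, leaving out 1 library could hardly turn the direction. Tet2 ranked 49th of the 12172 genes by p, which did not pass the adjustment. The call with sample quality weights (limma-voom adjusted p = 0.0217, log2 fold change 0.73) came from a fit that called 87 genes higher in females and 142 higher in males. That fit gave female replicate 3 a weight of 0.201 and female replicate 2 a weight of 4.00. The adjusted p of Tet2 over the alternatives ran from 0.0217 to 1.00.

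Myeloid markers had low levels, and 0 of the 5 tested members of the 7-gene monocyte and macrophage list passed in edgeR. All 5 had a log2 fold change above 0, that of Cd68 being 0.06, and the summed level of the list was 5.71 to 11.3 CPM in females and 1.76 to 2.40 CPM in males. Lyz2, a lysozyme gene of myeloid cells, was at 2.20 to 3.32 CPM in females and 0.282 to 0.390 CPM in males. Csf1r and Cd14 were at no more than 0.137 CPM in any library. Of the 5 plasma cell genes, 0 passed in edgeR and 4 had a log2 fold change above 0. Igj and Prdm1 were above the male libraries in every female one, with means of 44.8 and 17.5 CPM (Igj) and 35.5 and 12.5 CPM (Prdm1) in females and males, while Sdc1 (2.20 and 2.37 CPM) and Xbp1 (105 and 114 CPM) had the higher mean in males, with log2 fold changes of 0.0032 and -0.00030 on the TMM scale. The other member, Irf4, had 164 and 120 CPM. The part of either cell type in the Tet2 difference was not tested.

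Tet3, another eraser gene, had overlapping groups. Its levels were 85.2, 90.3 and 107 CPM in the females and 85.4, 99.3 and 86.9 CPM in the males. Female replicate 3 was highest and the other 5 libraries lay within 85.2 to 99.3 CPM. The log2 fold change was 0.22 ± 0.21 (95% interval -0.26 to 0.70). Without female replicate 3 it was -0.02, so the printed direction rests on that library.

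Tet1 was near the low end of the tested genes, with 49 to 123 estimated counts per library. It was at 2.21, 1.81 and 2.08 CPM in the females and at 2.09, 1.77 and 3.69 CPM in the males. Male replicate 3 stood above the other 5, with an exact 95% Poisson interval of 3.08 to 4.42 CPM, above the intervals of the other libraries, which reached at most 2.88 CPM. These intervals cover counting error only. The log2 fold change was -0.18 ± 0.40 (95% interval -1.10 to 0.75), and it turned to 0.21 without male replicate 3.

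Within the erasers, the ratio of Tet2 to Tet3 per kb was 0.851, 0.919 and 0.532 in female replicates 1 to 3 and 0.649, 0.441 and 0.582 in male replicates 1 to 3. With the longest transcripts Tet3 was the higher of the pair in every library. The mean log2 ratio was -0.42 ± 0.43 in females and -0.86 ± 0.29 in males, and female replicate 3 lay among the males. A ratio within a library does not depend on scaling between libraries.

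**Figure D2:**
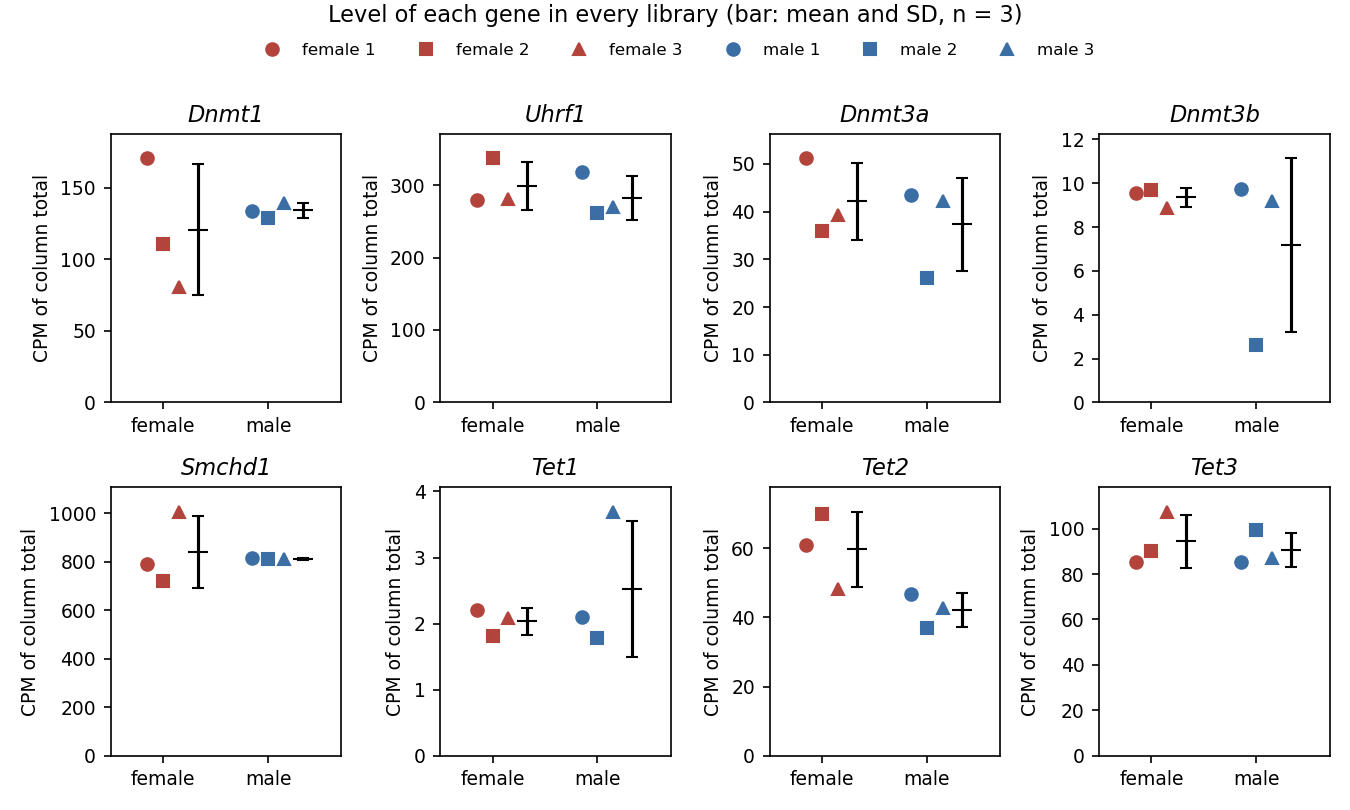
CPM of the column total of each gene, 1 point per library (red, female; blue, male), with the mean and SD of 3 libraries as a black bar beside each group; each vertical axis starts at 0 and has its own range. Only the Tet2 groups are apart (48.1 to 69.9 against 36.9 to 46.7 CPM), and single libraries stand off in Dnmt3b (male replicate 2), Tet1 (male replicate 3) and Smchd1 (female replicate 3).

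Dnmt1, the maintenance methyltransferase gene, differed far more among the females than among the males. It was at 171, 111 and 80.7 CPM in female replicates 1 to 3 and at 134, 129 and 140 CPM in male replicates 1 to 3. The males lay inside the range of the females, whose highest library was 2.11 times the lowest. On the TMM scale the females were at 160, 112 and 98.9 CPM and the males at 127, 123 and 134 CPM. The means were 121 ± 45.7 and 134 ± 5.19 CPM, and the log2 fold change was -0.05 ± 0.20 (95% interval -0.51 to 0.40). The difference took either sign when 1 library was left out, from -0.28 without female replicate 1 to 0.07 without female replicate 3. The unequal spread of the sexes was not tested.

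Uhrf1, which directs DNMT1 to hemimethylated sites, did not show that spread in CPM of the column total. It was at 279, 337 and 281 CPM in the females and at 318, 261 and 269 CPM in the males. On this scale female replicate 2 and male replicate 1 were highest, and the groups overlapped. On the TMM scale Uhrf1 was at 261, 339 and 344 CPM in the females and 302, 249 and 258 CPM in the males. Female replicate 3 was then highest, and the groups still overlapped. The log2 fold change was 0.22 ± 0.16 (95% interval -0.16 to 0.60), and it was above 0 in all 16 alternatives, from 0.08 to 0.52. Without female replicate 3 it was 0.15. In CPM of the column total the coefficient of variation over the 6 libraries was 10.2% for Uhrf1 and 23.5% for Dnmt1. The median over all tested genes was 26.4%. On the TMM scale the ranges were 249 to 344 CPM for Uhrf1 and 98.9 to 160 CPM for Dnmt1, a smaller contrast.

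Dnmt3a, a de novo methyltransferase gene, was at 51.2, 35.9 and 39.4 CPM in the females and at 43.5, 26.2 and 42.3 CPM in the males. Female replicate 1 was highest and male replicate 2 lowest, and the groups overlapped. The log2 fold change was 0.31 ± 0.24 (95% interval -0.25 to 0.86). Without male replicate 2 it was 0.11, so much of its size rests on that library.

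Dnmt3b, the other de novo gene, was nearly level in 5 libraries and low in the sixth. It was at 9.56, 9.68 and 8.88 CPM in the females and at 9.74, 2.63 and 9.18 CPM in the males. Male replicate 2, with 72 estimated counts against 230 to 317 elsewhere, had an exact 95% Poisson interval of 2.06 to 3.31 CPM, below all others, which started at 7.94 CPM. The log2 fold change of 0.52 ± 0.46 (95% interval -0.55 to 1.60) fell to 0.13 without male replicate 2. The same library was also the lowest of the 6 in CPM for Uhrf1, Dnmt3a, Tet1 and Tet2.

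In the length-scaled ratio of Dnmt1 to the sum of Dnmt3a and Dnmt3b, male replicate 2 was highest at 6.66. The other libraries lay at 3.88, 3.18 and 2.25 in female replicates 1 to 3 and 3.38 and 3.66 in male replicates 1 and 3. The mean log2 ratio was 1.60 ± 0.40 in females and 2.12 ± 0.53 in males, with overlapping groups. Without male replicate 2 the female minus male difference went from -0.52 to -0.22. The ratio of Dnmt1 plus Uhrf1 to the 3 Tet genes was more even, at 6.04 to 7.31 in females and 7.17 to 8.53 in males, and the groups overlapped by a small margin.

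Smchd1, at 790, 722 and 1006 CPM in the females and 816, 809 and 810 CPM in the males, had very even males. Female replicate 3 was highest and the other female libraries lay below every male one, so the groups overlapped. The means were 839 ± 148 and 812 ± 3.62 CPM. The log2 fold change was 0.22 ± 0.22 (95% interval -0.30 to 0.74), and it was -0.09 without female replicate 3. With the trend in transcript length and GC content removed from each library it was 0.01. Smchd1 thus had no called sex difference in libraries where Xist had one of 11.60 on the log2 scale (edgeR adjusted p = 0.00038), and its intervals allow up to a 1.67-fold higher or a 0.810-fold level in females.

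**Figure D3:**
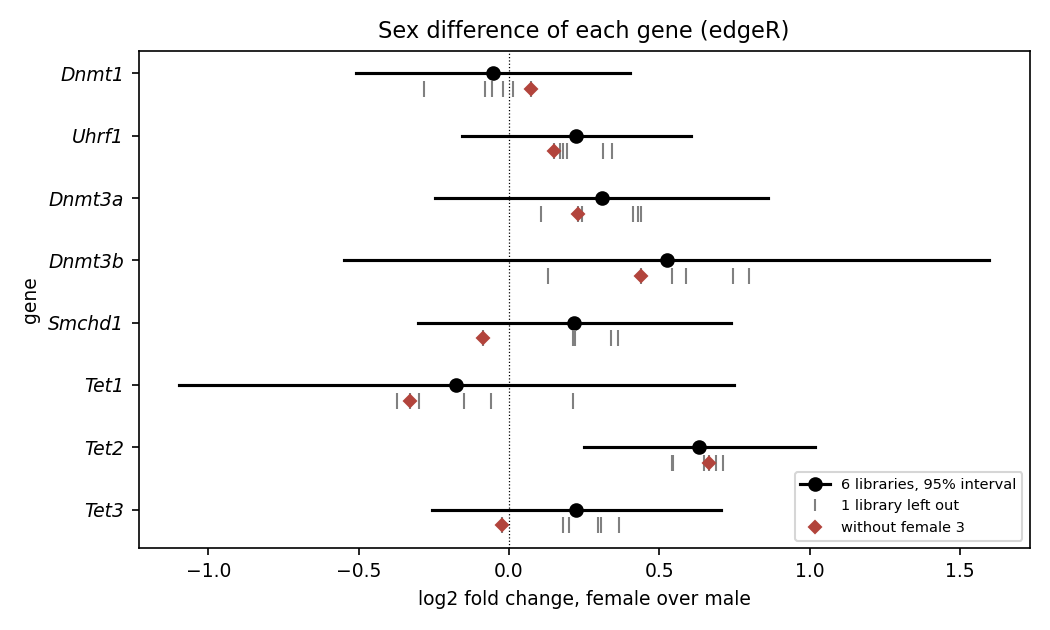
Log2 fold change (female over male) of each gene in edgeR with its 95% interval (black), the values with 1 library left out (grey ticks) and the value without female replicate 3 (red diamond). The Tet2 interval alone lies above 0 (0.25 to 1.02), before adjustment over all genes, and the diamonds of Smchd1, Tet3 and Dnmt1 lie on the other side of 0 from the black point.

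No pair of the 8 genes was called as varying together from mouse to mouse. Of the 28 pairs, 21 had a positive Pearson r of TMM-scaled log2 CPM over the 6 libraries, and 14 without female replicate 3. With scaling by library totals only, and all 6 libraries kept, 15 pairs had a positive r. No pair passed after Benjamini-Hochberg adjustment over the 28 pairs (smallest adjusted p = 0.428 for Pearson, exact permutation test, 2-sided), and 1 pair had an unadjusted Pearson p under 0.05. The smallest p that 6 libraries allow is 0.00278. That pair was Dnmt1 and Tet3, with r = -0.84 (exact permutation p = 0.0361) and Spearman rho = -0.89 (exact permutation p = 0.0333, adjusted p = 0.233), and r = -0.63 without the libraries farthest from the median of Dnmt1.

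Dnmt1 and Uhrf1, whose proteins act together, had r = -0.75 (exact permutation p = 0.0847, adjusted p = 0.433) and rho = -0.60 (exact permutation p = 0.242). Without female replicates 1 and 3, the farthest for Dnmt1, r was -0.71. On the TMM scale Uhrf1 and Dnmt3b had the same order in all 6 libraries, with rho = 1.00 (exact permutation p = 0.00278, the smallest possible, adjusted p = 0.0778). Their r was 0.62 (exact permutation p = 0.0611). In CPM of the column total the orders differed, with female replicate 2 highest for Uhrf1 and male replicate 1 highest for Dnmt3b. Smchd1 and Tet3 had r = 0.92 (exact permutation p = 0.0972), which was -0.13 without female replicate 3, so that relation rests on 1 library. Dnmt3a and Dnmt3b had r = 0.90 (exact permutation p = 0.0597), which turned to -0.72 without female replicate 3 and male replicate 2. The libraries share depth and composition differences, among them those of female replicate 3.

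**Figure D4:**
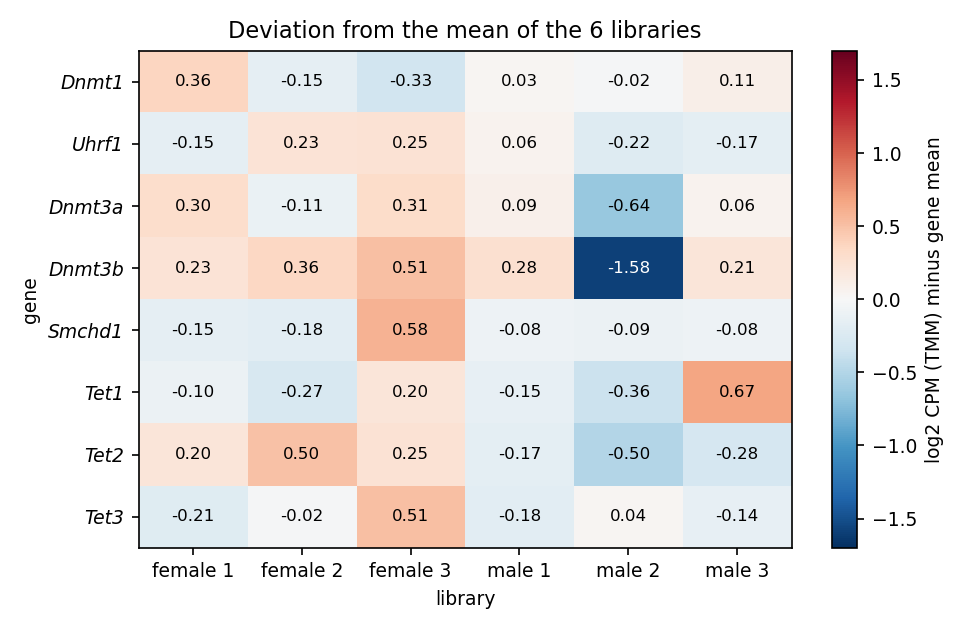
Log2 CPM (TMM-scaled) of each gene in each library minus that gene's mean over the 6 libraries; red is above and blue below the mean, with the value in each cell. Male replicate 2 is lowest in Dnmt3b (-1.58) and Dnmt3a (-0.64), and female replicate 3 is highest in Smchd1 (0.58) and Tet3 (0.51) while Dnmt1 is lowest there (-0.33).

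Genes with the most similar pattern were the 3 with the highest Pearson r of TMM-scaled log2 CPM over the 6 libraries. They were taken among 4779 named genes of at least 20 CPM. With so many genes and 6 libraries, high r values are frequent, and they describe these libraries only. For Tet2 they were Slc7a6, Cd24a and Gimap4 (r = 0.99, 0.99 and 0.97, and 0.99, 0.99 and 0.98 without female replicate 3). For Tet3 they were Fam172a, Slc35a1 and Zbtb11 (0.999, 0.997 and 0.996), and for Tet1 they were Ogt, Ift52 and Tbc1d31 (0.97, 0.89 and 0.86). The highest for Dnmt1 were Gid8, Cnot8 and Knstrn (0.98, 0.97 and 0.97) and for Uhrf1 Bccip, Zfp36l2 and Exosc3 (0.99, 0.98 and 0.97). Dnmt3a was most like Fam72a, Hnrnpr and Ankrd13a (0.99, 0.98 and 0.97), and Dnmt3b like Mmachc, Mnat1 and Pofut1 (0.999, 0.998 and 0.996). Smchd1 was most like Lypla1, Prps2 and Ckap2 (0.99 or more), and these fell to 0.77, 0.87 and 0.69 without female replicate 3.

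Other genes of the pathway were read from 8 lists. Of their 98 tested genes edgeR called 1, Xist, the RNA made from the inactive X. DESeq2 added Gpt2. Among cofactors of the methyltransferases, 0 of 9 tested genes passed and 2 had a log2 fold change above 0 (median -0.03), or 6 without female replicate 3 (median 0.10). Hells, the chromatin remodeller needed for methylation of repeats, had 1792 ± 280 CPM in females and 1571 ± 179 in males. Uhrf2, the paralogue of Uhrf1, had 149 ± 2.94 and 166 ± 7.83 CPM, Cdca7, a partner of Hells, had 174 ± 29.8 and 192 ± 12.1, and Usp7, a deubiquitinase bound to DNMT1 and UHRF1, had 410 ± 64.2 and 410 ± 22.7. The Uhrf2 groups did not overlap in CPM, where 7.55% of tested genes had every male library above every female one, but its log2 fold change on the TMM scale was near 0 (-0.0031). Dnmt3l, the catalytically inactive cofactor of the de novo enzymes, was not tested, with 0 CPM in 5 libraries and 0.0363 CPM, under the floor, in male replicate 2.

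Of the methyl-CpG readers, 0 of 10 passed and 6 were above 0 (median 0.03), or 4 without female replicate 3 (median -0.05). Mbd2 had female and male means of 86.7 ± 11.8 and 91.9 ± 10.8 CPM. The glycosylase gene Mbd4 had 77.0 ± 13.2 and 102 ± 6.58 CPM. Zbtb38 had the smallest p of the readers, with 28.8 ± 7.85 and 20.9 ± 3.66 CPM (edgeR adjusted p = 0.999). Of the TET partners and base excision genes, 0 of 13 passed and 5 were above 0 (median -0.07), or 8 without female replicate 3 (median 0.03). Tdg, the glycosylase that removes the oxidised bases made by TET enzymes, had 71.1 ± 12.2 and 69.5 ± 2.66 CPM, Ogt, the O-GlcNAc transferase that binds TET proteins, 478 ± 41.3 and 535 ± 53.6, and Lig3, with the smallest p, 62.7 ± 14.9 and 50.6 ± 15.5.

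Alpha-ketoglutarate is the co-substrate of TET enzymes. In the list of its supply, 3 of 13 tested genes were above 0 (median -0.18) and 0 passed in edgeR. In 4 of 13 every male library was above every female one, against 7.55% of all tested genes. Gpt2, a mitochondrial alanine aminotransferase, had 15.7, 13.4 and 10.4 CPM in the females and 22.7, 27.3 and 25.6 CPM in the males, a log2 fold change of -0.82 ± 0.18 (edgeR adjusted p = 0.968, DESeq2 adjusted p = 0.0377). Idh1, the cytosolic isocitrate dehydrogenase, had 23.9 ± 2.48 and 46.9 ± 17.3 CPM (log2 fold change -0.83 ± 0.27, edgeR adjusted p = 0.999), and Idh2 3.53 ± 2.04 and 4.07 ± 1.45. Without female replicate 3 the list had 6 of 13 above 0 and a median of -0.02.

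In the methyl donor list, 7 of 14 tested genes were above 0 (median -0.0050), 0 passed, and in 5 of 14 every male library was above every female one. Among them were Mat2b, Ahcyl1, Mtr and Mthfd2, named after their values were seen, and the first 3 of these had a log2 fold change within 0.03 of 0 on the TMM scale. Mthfd2, a mitochondrial folate enzyme with the smallest p of the list, had 109 ± 21.6 CPM in females and 150 ± 5.97 in males. Mat2a, which makes the methyl donor, had 407 ± 152 and 384 ± 46.8, and Ahcy, which clears its product, 80.6 ± 6.71 and 78.9 ± 14.7. Without female replicate 3 the list had 5 of 14 above 0 and a median of -0.04.

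In the list of SMCHD1 partners and Xist factors, 8 of 10 were above 0 (median 0.28, and 0.10 without female replicate 3). Lrif1, a partner of SMCHD1, had 343 ± 91.1 and 305 ± 47.9 CPM. Of the H3K9 and H3K36 writers, 9 of 13 were above 0 (median 0.11, and -0.02 without female replicate 3) and 0 passed. Setd2 had 324 ± 11.6 and 314 ± 35.2 CPM, Nsd1 270 ± 44.7 and 308 ± 52.9, and Whsc1 (now Nsd2), with the smallest p, 374 ± 20.4 and 349 ± 28.4.

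Genes of S phase and division, when DNMT1 and UHRF1 act, gave 7 of 16 above 0 (median -0.02) and 0 calls. Mki67 had 1028 ± 326 CPM in females and 1113 ± 250 in males, Pcna 1122 ± 72.6 and 1237 ± 81.1, Mcm5 32.1 ± 16.1 and 42.8 ± 6.05, and Ccna2, with the smallest p, 537 ± 273 and 404 ± 149. In female replicate 3, where Dnmt1 was lowest, Mcm5 was at 13.8 CPM against 37.0 to 49.1 in the other libraries, and Ccna2 was at 852 CPM against 237 to 523. In female replicate 1, where Dnmt1 was highest, Mki67 was at 1401 CPM, but it was at 1375 CPM in male replicate 3. The part of the cell cycle in the spread of Dnmt1 was not tested.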

How the data were processed

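The authors deposited estimated counts per gene symbol in a single table, each column from 1 mouse. The submitters' processing notes name kallisto, DESeq2 and the build GRCm38.p6, without versions, annotation or settings. These deposited estimated counts are not scaled to a common depth, and their relation to single reads was not measured. CPM was divided by transcript length before levels of different genes were compared. Counts were rounded for all tests.

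The sexes were compared in edgeR 4.0.16 (R 4.3.3) after filterByExpr and TMM scaling, by a quasi-likelihood F test (glmQLFit, glmQLFTest) on sex without covariates. P values were adjusted by Benjamini-Hochberg over 12172 genes. The standard error is the fold change divided by the root of F. The alternatives were DESeq2 1.42.0, limma 3.58.1 (voom, with and without sample weights), RLE factors, library totals, other filters, the replicate block, each library left out, a spline trend in length and GC removed, and immunoglobulin genes removed. Lengths came from GENCODE M21 (96.5% of symbols matched) and promoters from RefSeq. Correlations used TMM-scaled log2 CPM with a prior count of 2.

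On simulated counts for these 12172 genes the comparison recovered 22.2% of genes changed 2-fold and 69.4% of those changed 4-fold. The members, lists and rules were chosen with earlier results of these data known. The rule named the 8 genes, 21 fixed pathway genes, every called list gene, the smallest p of each list and the 3 genes most like each of the 8; of these, 1 fixed pathway gene is not reported here. The labels number the mice separately, so p values reflect the spread between animals.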

Additional observations from a re-analysis of the deposited data

How the results depend on the processing

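With 16 alternatives per gene, Uhrf1, Dnmt3b and Tet2 kept their direction in all. For Tet2, whose groups do not overlap, leaving out 1 library could hardly turn it. None of the 8 genes was called except Tet2 with sample quality weights (limma-voom log2 fold change 0.73, adjusted p = 0.0217, 1 of 8 called). Directions turned for Dnmt1 without female replicate 2 (0.013) or 3 (0.073; range with 1 library left out -0.28 to 0.073) and after removal of the trend in length and GC (0.068), for Smchd1 without female replicate 3 (-0.086; range -0.086 to 0.36) and with quality weights (-0.058), and for Dnmt3a with quality weights (-0.055). They also turned for Tet3 without female replicate 3 (-0.023; range -0.023 to 0.37) and for Tet1 without male replicate 3 (0.21; range -0.37 to 0.21). The genes called higher in females numbered 3, and 21 with DESeq2, 87 with quality weights, 5 without a filter and 6 with the trend removed; those higher in males numbered 4, and 11 and 142 with DESeq2 and quality weights. With 1 library left out the counts ran from 2 to 6 and from 1 to 6. The pathway lists held 1 called gene, 2 with DESeq2 and 4 with quality weights. Leaving out 1 library gave 1 to 2 of the 8 genes without overlap, a count that cannot fall below 1 since the Tet2 groups do not overlap with all libraries in (chosen after seeing the data). With the median transcript length the levels were 48.4 (Dnmt3a), 701 (Smchd1), 3.80 (Tet1), 21.1 (Tet2) and 19.1 (Tet3) CPM per kb. Of 128 list medians 11 moved by more than the spread. The cause of these changes was not tested.

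With the replicate number as a block, 3 and 4 genes and 0 of the 8 were called, Tet2 being at 0.63 (edgeR adjusted p = 0.956). Same-numbered libraries deviated together with r = 0.22, 0.04 and 0.07, and 2 of the 3 females correlated best with the male of their own number, so the numbers were not taken to pair the mice. Depth limits Tet1 most, with 49 to 123 counts per library.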
